A study of Mus musculus with 15 samples.

Results

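Islet autoantigens are proteins of the endocrine pancreas that autoantibodies or T cells recognise in type 1 diabetes. The genes described here are Gad1, Gad2, Ptprn, Ptprn2, Ica1 and Tspan7, chosen by their symbols as genes of known islet autoantigens. They are 6 of the 38283 genes for which RNA levels were measured in sorted mouse islet cells, and each symbol matched 1 gene. The alpha cell samples (n = 5) and beta cell samples (n = 4) were taken from Glu-Venus mice, in which the proglucagon promoter drives the fluorophore Venus. Alpha cells were the Venus-positive cells, and beta cells were Venus-negative cells gated on strong scatter and autofluorescence. The delta cell samples (n = 6) were taken from Sst-CreXROSA26EYFP/EYFP mice, in which Cre under the somatostatin promoter switches on the reporter EYFP, so cell type and mouse line cannot be told apart for the delta cells. All mice were C57BL/6, and their age and sex are not stated in the sources used here. The islets of several mice were pooled for each sort, beta cells were gated from sorts of the same mouse line as alpha cells, the sources used here do not say which alpha and beta samples shared a sort, and the p-values measure the spread between these pools. In bulk RNA, fewer cells of a type and less RNA per cell cannot be told apart.

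Gad1 and Gad2 encode the glutamate decarboxylases GAD67 and GAD65, which make gamma-aminobutyric acid (GABA) from glutamate. Ptprn and Ptprn2 encode the paired receptor-type proteins IA-2 and phogrin, which span the membrane of insulin granules and other dense-core granules and resemble tyrosine phosphatases. Ica1 encodes a membrane-curving (BAR domain) protein of the Golgi and immature granules, and Tspan7 a membrane protein of the tetraspanin family. In human type 1 diabetes, autoantibodies to GAD65, IA-2, insulin and the granule zinc transporter ZnT8 are those most used in the clinic.

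On GRCm38, with gene models from GENCODE M21, the glutamate decarboxylase genes both lie on the plus strand of chromosome 2. Gad1 spans chr2:70553072-70602014 (8 transcripts) and Gad2 spans chr2:22622205-22693874 (2 transcripts). Ptprn spans chr1:75247027-75264502 on the minus strand (6 transcripts), and its paralog Ptprn2 spans chr12:116485720-117276849 on the plus strand (5 transcripts), a far longer gene. Ica1 spans chr6:8630527-8778488 on the minus strand (12 transcripts), and Tspan7 spans chrX:10485158-10596605 on the plus strand (3 transcripts). An antisense gene, Gad1os, overlaps Gad1 and was listed above 0 in 2 samples, both of beta cells, with a highest value of 0.375 FPKM (fragments scaled by the length of the transcript and by the mapped reads of the library). The library kit is not stated to mark strand, so reads of the pair cannot be told apart. The microRNA genes Mir153, within Ptprn2, and Gm23636, within Gad2, were listed above 0 in 7 and 3 samples, with highest values of 537.6 and 25.6 FPKM, on the same strand as their host genes. Because FPKM are scaled by length, few reads can give a high value in so short a gene. These values are therefore not comparable with those of the host genes.

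Sequences upstream of a RefSeq start of each gene of both paralog pairs are shown because the ratio of the paralogs differed between the cell types. They are RefSeq promoter sequence of GRCm38.p6, limited to the longest stretch within the 250 bases before that start that overlaps no annotated exon. The stretches run from 250 to 88 bases before the start for Gad1 and from 250 to 123 for Gad2. They run from 225 to 6 for Ptprn and from 250 to 1 for Ptprn2. The Gad1 and Ptprn stretches lie within the GENCODE spans of these genes given above, and not upstream of them. The TATA box (letters TATAAA), one side of the cAMP response element (letters TGACG), the GC box (letters GGGCGG) and a homeodomain motif (letters TAATTA) were searched on both strands, and capitals mark every match.
Gad1, chr2:70561879-70562041, plus strand: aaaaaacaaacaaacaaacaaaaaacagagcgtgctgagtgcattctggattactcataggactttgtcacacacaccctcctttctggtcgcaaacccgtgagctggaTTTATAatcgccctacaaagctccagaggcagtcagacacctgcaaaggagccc
Gad2, chr2:22622077-22622204, plus strand: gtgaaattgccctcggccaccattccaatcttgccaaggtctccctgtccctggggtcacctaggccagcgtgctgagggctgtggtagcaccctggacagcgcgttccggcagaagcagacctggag
Ptprn, chr1:75264214-75264433, minus strand: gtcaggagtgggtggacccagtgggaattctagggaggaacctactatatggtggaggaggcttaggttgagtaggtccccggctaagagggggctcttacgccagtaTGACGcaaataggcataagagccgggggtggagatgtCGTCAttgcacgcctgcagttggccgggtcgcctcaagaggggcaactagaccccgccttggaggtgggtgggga
Ptprn2, chr12:116485470-116485719, plus strand: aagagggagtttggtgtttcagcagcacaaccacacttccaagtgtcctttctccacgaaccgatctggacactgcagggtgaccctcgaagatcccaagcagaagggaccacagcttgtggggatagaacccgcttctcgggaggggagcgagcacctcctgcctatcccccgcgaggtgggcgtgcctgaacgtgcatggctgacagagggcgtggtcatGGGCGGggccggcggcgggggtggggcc
The Gad1 stretch holds 1 match to TATAAA, on the opposite strand, which 7.78% of 32851 promoters hold at the same distances from the start. The Gad2 stretch holds none of the 4 motifs. The Ptprn stretch shown, upstream of the outer of 2 annotated starts, holds 2 matches to TGACG, 1 on each strand, where 16.4% of promoters hold at least 1, and the Ptprn2 stretch holds 1 GC box, as 32.7% of promoters do. The stretch at the other Ptprn start, chr1:75263772-75263857 (86 bases), holds none of the 4 motifs. These are matches of letters, and binding was not measured.

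The sorted populations carried the hormone genes of their labels. The summed level of 6 alpha cell markers was 195000 to 363700 FPKM in alpha cells and at most 3005 in the others. The 6 beta cell markers summed to 118300 to 776300 FPKM in beta cells, 3673 to 12690 in alpha cells and 4865 to 9576 in delta cells. The 4 delta cell markers summed to 102600 to 267800 FPKM in delta cells and at most 3346 elsewhere. The hormone genes Ppy and Pyy, listed here as PP cell markers, were high in alpha cells (summed 57420 to 85550 FPKM) and delta cells (35520 to 114000 FPKM). Which cells they came from was not tested. Acinar markers reached 447.1 FPKM in delta replicate 4. The table gives no read totals. The step of a single read could be resolved in 6 samples and implied 7.44 M to 30.5 M reads, and the depth of the other 9 is unknown. A total over 88 ribosomal protein genes, in FPKM, split the samples into 2 sets. Alpha replicates 1 to 3, beta replicate 2 and delta replicates 1 and 2 lay at 66931 to 142961, and the other 9 samples at 8271 to 39532. The limit of 50000 was set with these values known. Resolved depths in the set with high sums were 7.44 M reads (alpha replicate 2), 10.9 M and 10.1 M (delta replicates 1 and 2). In the other set they were 25.4 M (alpha replicate 5), 30.5 M and 25.5 M (delta replicates 3 and 4). Genes above 0 numbered 14761 to 15627 against 16834 to 17122 in alpha cells, in that order. They numbered 15286 against 16470 to 17752 in beta cells and 16342 to 17052 against 18175 to 18559 in delta cells.

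Of the 6 members, 5 had a mean above 1 FPKM in at least 1 cell type and were tested, and Gad2 did not. Differences were tested with limma, a linear model with moderated variances, on log2(FPKM + 1), and are given on that scale, which understates the change of genes with low values. An adjusted p under 0.05 across 14405 genes counted as a call. In beta against alpha cells, 2 of the 5 tested members were called (Gad1 higher, Tspan7 lower), where 7.66% of all tested genes were called. In delta against beta cells 1 of 5 was called (Gad1 lower), where the share of all tested genes was 14.7%. In delta against alpha cells limma called 0 of 5, beside 6.81% of all tested genes, and 1 member (Ptprn) had an unadjusted p under 0.05. The median difference over the members was 0.29 for beta from alpha, 0.53 for delta from alpha and 0.25 for delta from beta cells, beside -0.13, 0.13 and 0.30 over all tested genes. Dividing the samples by median-ratio size factors shifted these all-gene medians by 0.13, -0.12 and -0.28. It also moved the calls over all genes from 409 of 1104 higher in beta than alpha cells to 1096 of 2078, from 768 of 981 higher in delta than alpha cells to 725 of 1070, and from 1683 of 2114 higher in delta than beta cells to 1378 of 2678.

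**Figure D1:**
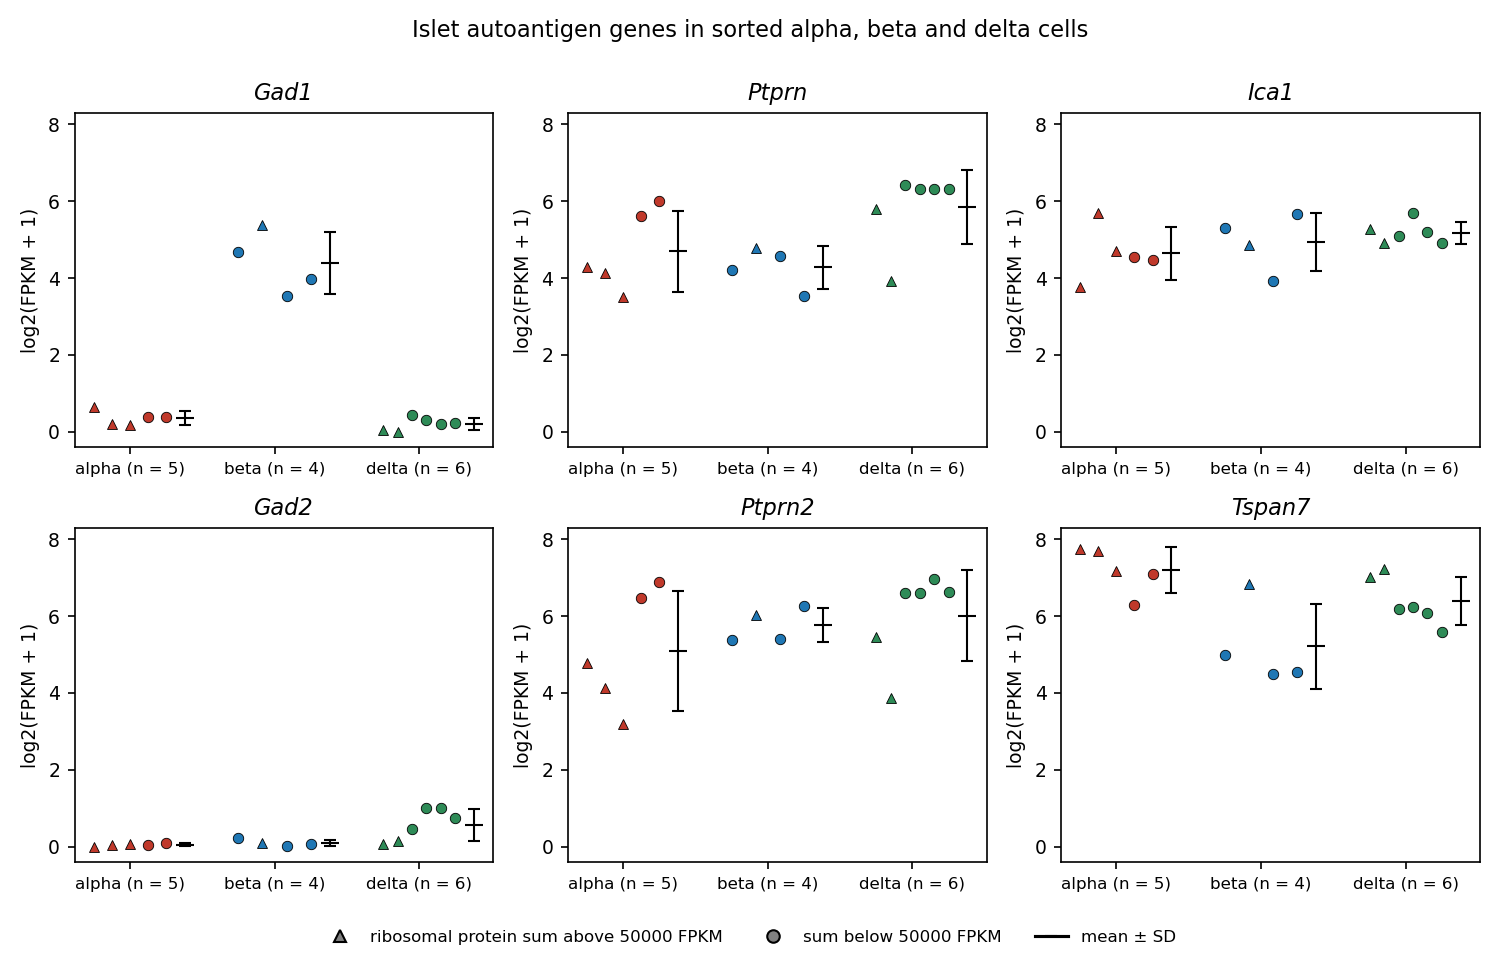
Level of each gene on the log2(FPKM + 1) scale (vertical axis) in every sample of alpha, beta and delta cells, with the mean and SD beside each group. Triangles are the 6 samples with a summed ribosomal protein level above 50000 FPKM, and circles the other 9. Gad1 stood at 10.6 FPKM or more in every beta cell sample and at 0.567 FPKM or less in every alpha and delta cell sample, while the other genes overlapped between cell types.

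Among the enzymes of GABA synthesis, Gad1 was a beta cell transcript in these samples. It stood at 24.4, 40.8, 10.6 and 14.6 FPKM in beta cell replicates 1 to 4. In alpha cell replicates 1 to 5 it stood at 0.567, 0.143, 0.133, 0.302 and 0.315 FPKM. In delta cells it ran from 0 in replicate 2 to 0.363 FPKM in replicate 3, with a median of 0.163. Every beta cell sample was above every alpha and every delta cell sample. Over all tested genes the samples did not overlap, in either direction, for 8.12% in the first of these comparisons and for 14.9% in the second. No member was free of overlap between delta and alpha cells, where 6.64% of tested genes were. The means were 22.6 ± 13.4 FPKM in beta (SD, n = 4), 0.292 ± 0.176 in alpha (n = 5) and 0.160 ± 0.134 in delta cells (n = 6), so that the beta cell mean was 77.6 times the alpha cell mean. Gad1 ranked 2471 of 38283 genes by mean level in beta cells, 14771 in alpha cells and 16791 in delta cells. The difference of beta from alpha cells was 4.03 (SE 0.33, limma adjusted p = 1.03e-06), and that of delta from beta cells was -4.18 (SE 0.32, limma adjusted p = 2.37e-07). Delta and alpha cells overlapped and differed by -0.15 (SE 0.30, limma adjusted p = 0.869).

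The low Gad1 levels of the other cells were set beside those of insulin, since beta cell transcripts were present there. The alpha cell mean of Gad1 was 1.29% of its beta cell mean, and the delta cell mean 0.707%. For Ins2, the main mouse insulin gene by level here, the same shares were 1.87% and 1.95%, and for Ins1 they were 2.52% and 2.08%. The Ins2 beta cell samples ran from 91250 to 638900 FPKM, with a median of 225400 and a mean of 295200. Its shares therefore lean on the highest beta cell sample. The shares of Gad1 were thus below those of both insulin genes, and the part of beta cell RNA in the low Gad1 values was not tested.

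Gad2, whose human protein GAD65 is the classical autoantigen of the pair, was at 0.162 FPKM or less in every alpha and beta cell sample and at 0.0466 to 1.02 FPKM in delta cells. In alpha cell replicates 1 to 5 it stood at 0, 0.0244, 0.0509, 0.0281 and 0.0754 FPKM, and in beta cell replicates 1 to 4 at 0.162, 0.0682, 0.0195 and 0.0534. In delta cell replicates 1 to 6 it stood at 0.0466, 0.104, 0.386, 1.02, 1.02 and 0.679 FPKM. Delta replicates 3 to 6 were above every alpha and beta cell sample, while delta replicates 1 and 2 lay among them. Delta replicates 1 and 2 were also the 2 delta cell samples of the set with high ribosomal protein levels, and their mean was 0.0753 FPKM against 0.776 in the other 4. Their resolved depths were 10.9 M and 10.1 M reads, against 30.5 M and 25.5 M in delta replicates 3 and 4. The part of depth in these values was not tested. The means were 0.0358 ± 0.0286 FPKM in alpha (SD, n = 5), 0.0757 ± 0.0609 in beta (n = 4) and 0.542 ± 0.433 in delta cells (n = 6), so the delta cell mean was 15.2 times that of alpha cells and 7.16 times that of beta cells.

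In two-sided exact permutation tests of Gad2, delta exceeded alpha cells by 0.53 on the log2(FPKM + 1) scale (p = 0.0130, 0.0390 adjusted over the 3 pairs of cell types). Delta and beta cells differed by 0.47 (exact permutation p = 0.0762, adjusted 0.114), or by 0.57 without delta replicate 1 (adjusted exact permutation p = 0.0476), and beta and alpha cells by 0.05 (exact permutation p = 0.302). The delta against alpha difference did not pass limma across all genes without a filter (adjusted p = 0.166), and it no longer passed when any alpha cell sample or any of delta replicates 2 to 6 was left out, with adjusted exact permutation p-values up to 0.0857. Gad2 was the lowest of the 6 members in alpha and beta cells, and Gad1 the lowest in delta cells.

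The ratio of Gad1 to Gad2 within a sample does not depend on scaling between samples except through the pseudocount, and it separated all 3 cell types. On the scale of log2 of the ratio of FPKM + 1 it was 4.45, 5.29, 3.51 and 3.89 in beta cell replicates 1 to 4. It ran from 0.11 to 0.65 in alpha cells and from -0.81 to -0.02 in delta cells. Gad1 thus exceeded Gad2 in every beta and alpha cell sample, and Gad2 exceeded Gad1 in every delta cell sample. The unlogged ratio was 151 to 598 in beta cells, 2.61 to 10.7 in the 4 alpha cell samples with Gad2 above 0 and at most 0.939 in delta cells. The means differed by 3.98 between beta and alpha cells (two-sided exact permutation p = 0.0159, adjusted over 6 ratio comparisons 0.0238). They differed by -0.68 between delta and alpha cells (exact permutation p = 0.00433, adjusted 0.0190) and by -4.66 between delta and beta cells (exact permutation p = 0.00952, adjusted 0.0190). These are the smallest p-values that the group sizes can give, and without beta replicate 1, 2 or 4 the beta against alpha comparison gave an adjusted exact permutation p of 0.0536 at differences of 3.64 to 4.11, with the raw p at the smallest these sizes allow. In alpha and delta cells both genes were under or near 1 FPKM, so their ratio rests on low values.

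**Figure D2:**
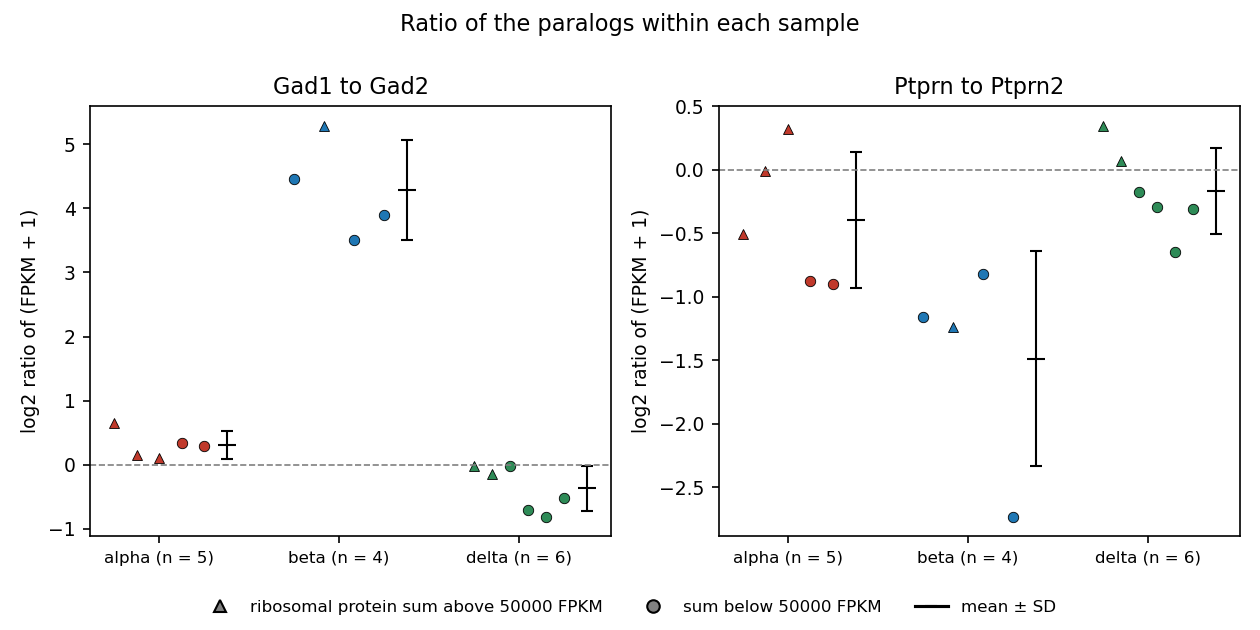
Log2 ratio of FPKM + 1 of Gad1 to Gad2 (left) and of Ptprn to Ptprn2 (right) in every sample, with the mean and SD of each cell type. Triangles mark the 6 samples with ribosomal protein sums above 50000 FPKM. The Gad1 to Gad2 ratio was 3.51 or more in beta cells and below 0 in every delta cell sample, and the Ptprn to Ptprn2 ratio was lower in every beta cell sample than in any delta cell sample.

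The granule protein genes Ptprn and Ptprn2 were expressed in all 3 cell types, and the spread within each type was wide. Ptprn stood at 18.4, 16.4, 10.3, 47.6 and 62.7 FPKM in alpha cell replicates 1 to 5. In beta cell replicates 1 to 4 it stood at 17.6, 26.5, 22.9 and 10.5 FPKM. In delta cell replicates 1 to 6 it stood at 54.4, 14.3, 85.2, 78.1, 78.3 and 78.3 FPKM. Of the delta cell samples 5 were above all beta cell samples, and delta replicate 2 lay between beta replicates 4 and 1. The order of the means was delta (64.8 ± 26.9 FPKM, SD, n = 6), alpha (31.1 ± 22.8, n = 5) and beta (19.4 ± 6.93, n = 4), and no neighbours in that order passed the test. Delta cells differed from beta cells by 1.57 (SE 0.57, limma adjusted p = 0.0771) and from alpha cells by 1.15 (SE 0.53, limma adjusted p = 0.289), and beta from alpha cells by -0.42 (SE 0.59, limma adjusted p = 0.717). Without delta replicate 2 the delta against beta difference was 1.95 and passed (limma adjusted p = 0.0154). It also passed with the set of samples as a covariate, at 1.66 (limma adjusted p = 0.0175).

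Ptprn2, the paralog of Ptprn, had the higher mean of the pair in each cell type. It stood at 26.5, 16.5, 8.10, 88.3 and 117.7 FPKM in alpha cell replicates 1 to 5, and at 40.6, 63.9, 41.1 and 75.3 in beta cell replicates 1 to 4. In delta cell replicates 1 to 6 it stood at 42.5, 13.6, 96.4, 96.1, 123 and 96.9 FPKM. The low alpha and delta cell samples were the same ones as for Ptprn, and all cell types overlapped. The means were 78.1 ± 41.1 FPKM in delta (SD, n = 6), 55.2 ± 17.3 in beta (n = 4) and 51.4 ± 48.7 in alpha cells (n = 5). No pair of cell types passed the test, with differences of 0.67 for beta from alpha cells (SE 0.75, limma adjusted p = 0.635), 0.92 for delta from alpha cells (SE 0.68, limma adjusted p = 0.571) and 0.25 for delta from beta cells (SE 0.72, limma adjusted p = 0.857). The last of these turned to -0.16 with size factors and to -0.23 with the replicate number as a block.

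Both genes moved with the ribosomal protein sets within alpha and delta cells. Ptprn averaged 15.03 FPKM in the 3 alpha cell samples with high ribosomal protein levels against 55.2 in the other 2, and 34.4 in the 2 such delta cell samples against 80.0 in the other 4. Ptprn2 averaged 17.01 against 103 FPKM in alpha cells and 28.1 against 103.1 in delta cells. In beta cells the single sample with high ribosomal protein levels was not low, at 26.5 FPKM for Ptprn against a mean of 17.01 in the other 3, and at 63.9 for Ptprn2 against 52.3. Among the samples with low ribosomal protein levels, delta cells therefore stood above beta cells for both genes (80.0 against 17.01 FPKM for Ptprn, and 103.1 against 52.3 for Ptprn2). The samples with high ribosomal protein levels also had lower depth where it was resolved, and fewer genes above 0 than the others of their cell type. What the sets reflect was not tested.

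**Figure D3:**
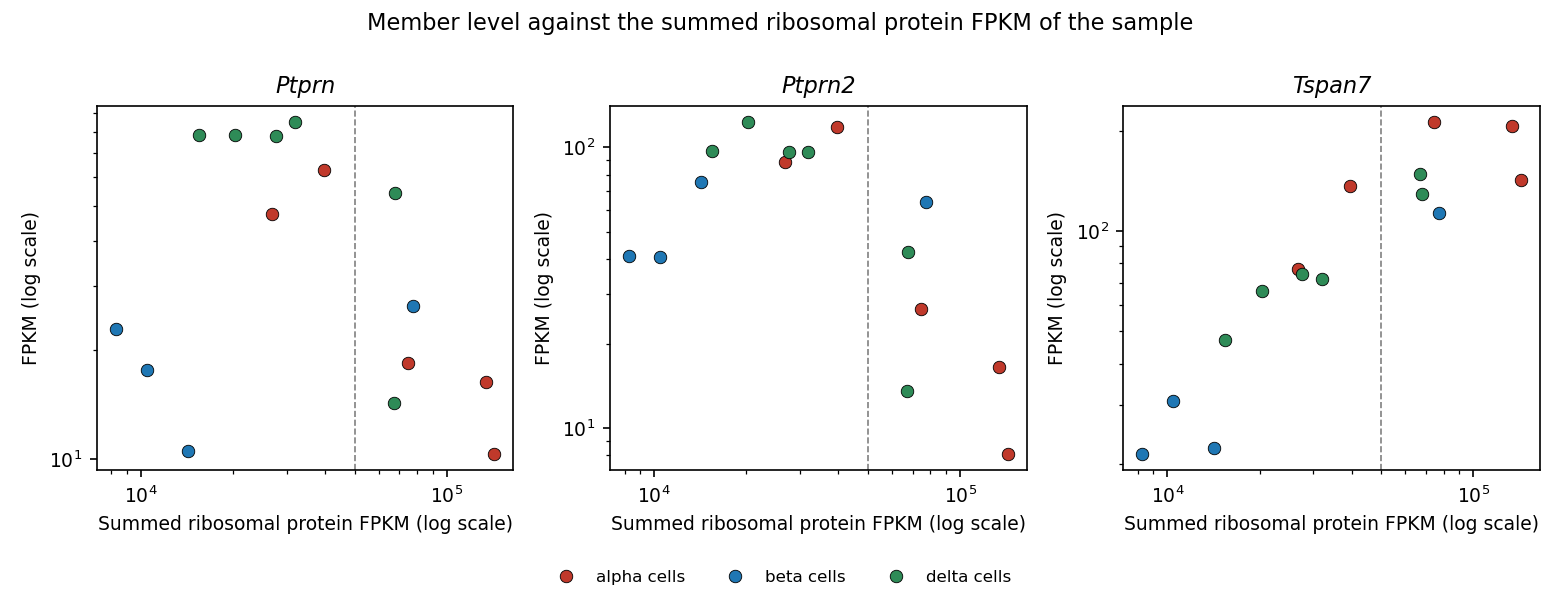
FPKM of Ptprn, Ptprn2 and Tspan7 (vertical axis, log scale) against the total FPKM of 88 ribosomal protein genes (horizontal axis, log scale) in the 15 samples, coloured by cell type; the dashed line is the limit of 50000 FPKM. Within alpha cells and within delta cells, samples right of the line had lower Ptprn and Ptprn2 than those left of it, and samples right of the line had Tspan7 of 113 FPKM or more.

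The ratio of Ptprn to Ptprn2 was lower in beta than in delta cells. On the log2 scale of FPKM + 1 it was -1.16, -1.24, -0.82 and -2.73 in beta cell replicates 1 to 4, and it ran from -0.64 to 0.35 in delta cells. The beta and delta cell samples did not overlap. The mean was -1.49 ± 0.85 in beta (SD, n = 4), -0.17 ± 0.34 in delta (n = 6) and -0.39 ± 0.54 in alpha cells (n = 5). Delta and beta cells differed by 1.32 (two-sided exact permutation p = 0.00952, adjusted over 6 comparisons 0.0190). Beta cells differed from alpha cells by -1.09 (exact permutation p = 0.0476, adjusted 0.0571), with overlap of beta replicate 3 and alpha replicates 4 and 5. Without beta replicate 3 that difference was -1.32 (adjusted exact permutation p = 0.0429), and without beta replicate 4, whose ratio was the lowest of all samples, it was -0.68 (adjusted exact permutation p = 0.129). Delta and alpha cells differed by 0.23 (exact permutation p = 0.416).

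Ica1, the BAR domain protein of the secretory pathway, had means of 26.5 to 35.9 FPKM over the 3 cell types. It stood at 12.7, 51.0, 25.3, 22.3 and 21.3 FPKM in alpha cell replicates 1 to 5, at 38.1, 27.8, 14.2 and 49.6 in beta cell replicates 1 to 4 and at 29.0 to 50.8 in delta cells, with a median of 34.4. The means were 35.9 ± 8.08 FPKM in delta (SD, n = 6), 32.4 ± 15.04 in beta (n = 4) and 26.5 ± 14.5 in alpha cells (n = 5). All cell types overlapped, and alpha and beta cells each spanned a wider range than delta cells. The differences were 0.29 for beta from alpha cells (SE 0.43, limma adjusted p = 0.735), 0.53 for delta from alpha cells (SE 0.38, limma adjusted p = 0.559) and 0.25 for delta from beta cells (SE 0.41, limma adjusted p = 0.742). The last turned to -0.17 with size factors and to -0.09 without beta replicate 3.

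Tspan7, the tetraspanin, had the highest mean of the 6 genes in alpha and delta cells, and its beta cell level was under that of alpha cells. It stood at 212, 206, 142.5, 77.1 and 136 FPKM in alpha cell replicates 1 to 5, at 30.8, 113, 21.5 and 22.3 in beta cell replicates 1 to 4 and at 129, 148, 72.0, 74.5, 66.1 and 46.9 in delta cell replicates 1 to 6. Of the beta cell samples, 3 lay below every alpha and every delta cell sample, and beta replicate 2 lay among them. The means were 154.8 ± 55.8 FPKM in alpha (SD, n = 5), 89.6 ± 39.9 in delta (n = 6) and 46.9 ± 44.4 in beta cells (n = 4). Beta cells differed from alpha cells by -1.98 (SE 0.52, limma adjusted p = 0.0306). Delta cells differed from alpha cells by -0.81 (SE 0.47, limma adjusted p = 0.443) and from beta cells by 1.17 (SE 0.50, limma adjusted p = 0.136).

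The Tspan7 calls depended on single samples. The beta against alpha call was lost without alpha replicate 1, 2 or 5 or beta replicate 1, 3 or 4 (limma adjusted p up to 0.107), and was -2.52 (limma adjusted p = 0.00248) without beta replicate 2. Without beta replicate 2 the delta against beta difference was 1.71 and passed (limma adjusted p = 0.0127). Beta replicate 2 was the only beta cell sample with high ribosomal protein levels, and Tspan7 was higher in the samples of that set within each cell type, at means of 186.9 against 106.7 FPKM in alpha cells, 113.2 against 24.9 in beta cells and 138.9 against 64.9 in delta cells. With the set as a covariate, delta exceeded beta cells by 1.07 (limma adjusted p = 0.0215).

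The genes with the pattern most like each member were named by Pearson's r of log2(FPKM + 1) over the 15 samples, as a description that cell type, ribosomal protein set and depth all enter. For Gad1 they were CT030166.1 (r = 0.989), 5430425J12Rik (0.987) and Emid1 (0.986), each with its highest mean in beta cells. For Gad2 they were Ryr3 (0.964), 7SK (0.945) and Nckap5l (0.942), each highest in delta cells. For Ptprn they were Cherp (0.966), Arhgef17 (0.948) and Gse1 (0.943), and for Ptprn2 they were Bcr (0.978), AL627077.2 (0.972) and Smarca4 (0.971). For Tspan7 they were Slc25a39 (0.976), the ribosomal protein gene Rps10 (0.972) and the tubulin gene Tubb5 (0.967). Ica1 had no close match, with 2810403A07Rik (0.842), Pank2 (0.802) and Clk2 (0.770). Among the members, r was highest between Ptprn and Ptprn2 (0.773) and lowest between Gad1 and Tspan7 (-0.56).

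Genes of 12 other islet autoantigens, from a list drawn up with earlier results of these data known, were tested in the same fit. Limma called 4 of 11 tested as higher and 0 as lower in beta than alpha cells, beside 2.84% and 4.82% of all tested genes. For delta against beta cells 1 was higher and 5 lower (11.7% and 2.99% of all tested genes), and for delta against alpha cells 1 was higher and 1 lower (5.33% and 1.48%). The list's median differences were 0.75, -1.02 and -0.00 in that order. The insulin genes, which also belong to the list of beta cell markers, were among those called, so the counts are not independent of the sort.

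Slc30a8, which encodes the zinc transporter ZnT8, separated delta cells from both other types. It stood at 259 ± 131 FPKM in alpha (SD, n = 5), 277 ± 208 in beta (n = 4) and 2.35 ± 0.877 in delta cells (n = 6), with no overlap of delta with either. The differences were -6.14 for delta from alpha cells (SE 0.48, limma adjusted p = 4.28e-07) and -6.12 for delta from beta cells (SE 0.51, limma adjusted p = 7.51e-07), and alpha and beta cells differed by -0.02 (SE 0.53, limma adjusted p = 1). G6pc2, the islet glucose-6-phosphatase subunit known as IGRP, averaged 1941 ± 2281 FPKM in beta (SD, n = 4), 39.3 ± 26.2 in alpha (n = 5) and 9.31 ± 5.14 in delta cells (n = 6). Beta replicate 2 stood at 5341 FPKM, and the other 3 beta cell samples averaged 807.8. G6pc2 was 5.21 higher in beta than alpha cells (limma adjusted p = 0.000106) and 7.10 higher than in delta cells (delta minus beta -7.10, limma adjusted p = 2.06e-06). Iapp, the gene of the amyloid peptide secreted with insulin, was higher in delta than alpha cells by 2.82 (limma adjusted p = 0.0126) and lower in delta than beta cells by 2.67 (delta minus beta -2.67, limma adjusted p = 0.0165). Both Iapp calls were lost without a filter on FPKM (limma adjusted p = 0.0680 and 0.0764), the second also with the replicate block on pairs only (limma adjusted p = 0.0853), and the second was -1.69 with quantile normalization. Sox13, a transcription factor, was higher in delta than beta cells by 0.97 (limma adjusted p = 0.0372), at 2.12 ± 0.824 (SD, n = 6) against 0.561 ± 0.323 FPKM (n = 4). The Sox13 call was lost without beta replicate 2, 3 or 4 or without delta replicate 1 or any of 3 to 6 (limma adjusted p up to 0.0912), and it held in 3 of the 9 other settings that tested it (limma adjusted p up to 0.254). Chga, Cpe, Vamp2, Hspd1 and Npy passed the test in no comparison, and Prph, the gene of the neuronal filament peripherin, was listed at 0 in every sample.

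**Figure D4:**
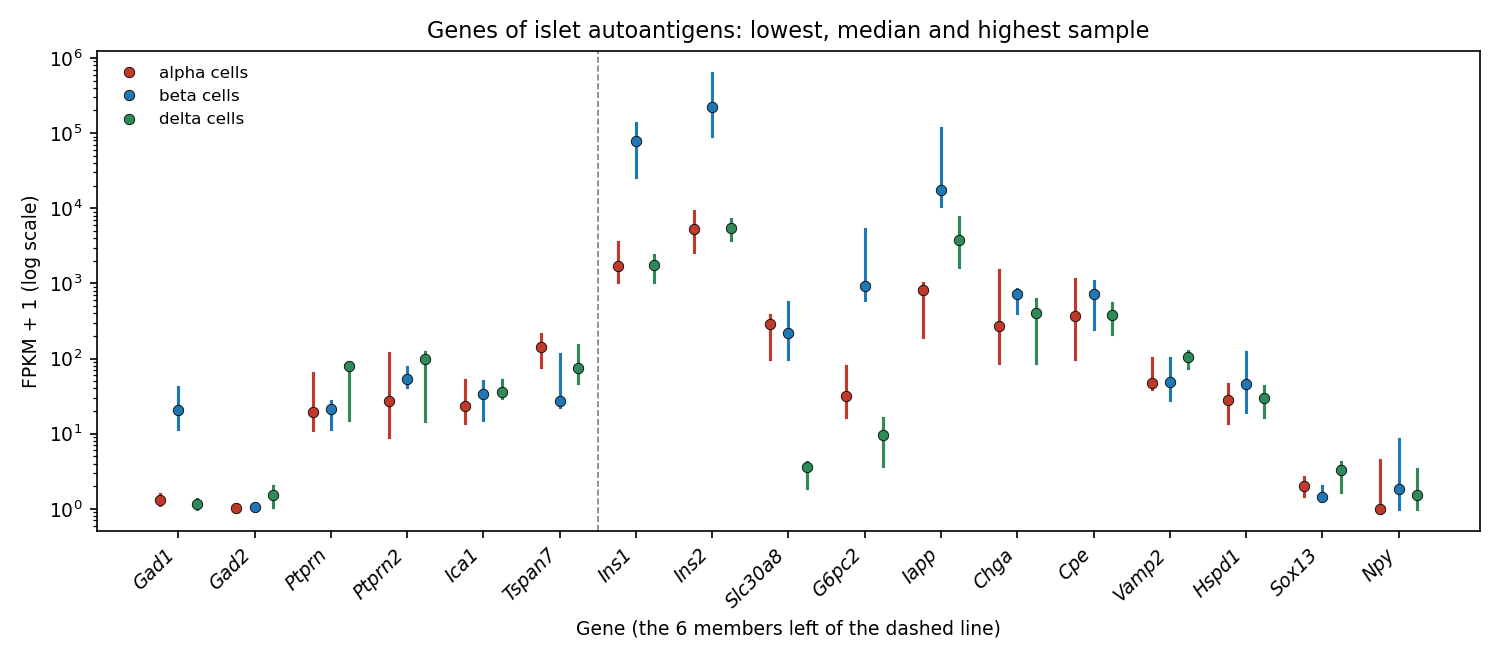
Median (point) and lowest to highest sample (line) of FPKM + 1 (log scale) for the 6 members, left of the dashed line, and 11 other islet autoantigen genes in alpha (n = 5), beta (n = 4) and delta (n = 6) cells. Gad1 alone of the 6 members had a range apart from those of the other cell types, in beta cells. Of the other genes, Ins1 and Ins2 were apart in beta cells, Slc30a8 in delta cells, and G6pc2 and Iapp in all 3 cell types.

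The gene of GABA's loading into vesicles was listed at 0 throughout. Of 15 genes of GABA synthesis, transport and breakdown reported here, 9 were tested, and Gadl1, Gls2 and 4 transporter genes were below the filter. The vesicular transporter Slc32a1 and the plasma membrane transporter Slc6a12 were listed at 0 in every sample, and Slc6a13 was above 0 only in delta cells, at up to 0.0183 FPKM. Slc6a13 was listed at 0 in 5 of the 6 delta cell samples. Slc6a11 was listed at 0 in alpha cells and averaged 0.198 ± 0.149 FPKM in delta cells (SD, n = 6). The median number of genes above 0 was 18198.5 in delta, 15627 in alpha and 16679.5 in beta cells, and its part in these low values was not tested. By limma, beta cells had 0 higher and 1 lower (Csad) than alpha cells. Delta cells had 2 higher and 0 lower than alpha cells, and 3 higher and 0 lower than beta cells, beside the shares over all tested genes given for the autoantigen list. Both counts include Slc38a1, which passed the filter only through its delta cell level. The medians of the 9 genes were 0.27, 0.44 and 0.41 in that order, beside -0.13, 0.13 and 0.30 over all tested genes.

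Csad, a decarboxylase related to Gad1 that makes hypotaurine, was higher in delta than beta cells (2.06, SE 0.35, limma adjusted p = 0.000888) at 7.17 ± 2.57 against 0.947 ± 0.520 FPKM. Its difference of beta from alpha cells (-1.36, limma adjusted p = 0.0335) was lost without alpha replicate 1, 2 or 4 or beta replicate 1, 3 or 4 (limma adjusted p up to 0.109).

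Pdxk, the kinase that makes the cofactor of the decarboxylases, was higher in delta cells (6.18 ± 1.23 FPKM, n = 6) than in alpha (2.22 ± 0.885, n = 5) and beta cells (1.40 ± 0.519, n = 4), by 1.18 (limma adjusted p = 0.00770) and 1.59 (limma adjusted p = 0.000888). Slc38a1, a glutamine carrier, averaged 1.06 ± 0.175 FPKM in delta cells (SD, n = 6), was listed at 0 in every beta cell sample and reached at most 0.00268 in alpha cells. Its differences were 1.04 from both other cell types (limma adjusted p = 0.00460 and 0.00492). Slc38a1 passed the filter of 1 FPKM only through its delta cell mean, which lay just above it, and was not tested with the filter of 5 FPKM. With only the samples paired by replicate number in the fit, and that number as a block, both Slc38a1 calls were lost (limma adjusted p = 0.262 and 0.139), as was that of Pdxk in delta against alpha cells (limma adjusted p = 0.143). Abat and Aldh5a1, which break GABA down, did not pass the test in any comparison, at 9.98 ± 4.44, 20.8 ± 10.3 and 15.02 ± 8.77 FPKM for Abat and at 3.89 ± 1.34, 4.84 ± 1.34 and 7.13 ± 3.17 for Aldh5a1 in alpha, beta and delta cells (SD, n = 5, 4 and 6). Glul, Glud1, Slc38a2 and Zdhhc17 did not pass either.

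Of 10 binding partners and close relatives of the members, limma called 1 in beta against alpha cells (Ica1l), 1 in delta against alpha cells (Capn1) and both genes, 2 of 10, for delta against beta cells, beside 7.66%, 6.81% and 14.7% of all tested genes. Ica1l, the relative of Ica1, had a pattern unlike that of Ica1. It stood at 4.04, 12.4, 1.78 and 11.9 FPKM in beta cell replicates 1 to 4, at 0.0158 to 0.587 in alpha cells and at 0.0510 to 0.859 in delta cells. Every beta cell sample was above every other sample. Beta exceeded alpha cells by 2.47 (SE 0.41, limma adjusted p = 0.00122), and delta differed from beta cells by -2.43 (SE 0.40, limma adjusted p = 0.000613). The first of these calls was lost with the replicate block on pairs only (limma adjusted p = 0.0661). Capn1, the calpain that can cut IA-2, stood at 4.94 ± 2.00 FPKM in delta (SD, n = 6), 1.497 ± 0.642 in alpha (n = 5) and 1.53 ± 0.556 in beta cells (n = 4). Delta exceeded alpha cells by 1.21 (SE 0.30, limma adjusted p = 0.0198) and beta cells by 1.18 (SE 0.32, limma adjusted p = 0.0210). Both calls were lost with size factors (limma adjusted p = 0.102 and 0.173) and without delta replicate 3 (0.0561 and 0.0509), the first also without alpha replicate 1 (0.0647) and the second without beta replicate 4 (0.0715). Each Capn1 call held in 5 of the 9 other settings that tested it (limma adjusted p up to 0.271 and 0.209). The other 8 genes, among them Pick1, Rab2a, Sntb2 and Ptbp1, were called in no comparison.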

How the data were processed

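RNA from 15 samples of FACS-sorted islet cells had been amplified with a NuGEN kit and sequenced. Per the submitters' processing notes, reads were aligned to GRCm38 with TopHat2 2.0.8, and the authors made the deposited FPKM of each gene and sample with Cufflinks 2.2.1. The annotation release is not given in the sources used here. The study's own comparison used edgeR on raw counts, which were not used here. FPKM leave the depth of most samples unknown, so zeros are given as listed, without a floor of detection.

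Genes with a mean above 1 FPKM in at least 1 cell type (14405) were tested with limma 3.58.1 in R 4.3.3 (moderated variances with a trend, on log2(FPKM + 1)), with 1 mean per cell type, all 15 samples in 1 fit and Benjamini-Hochberg adjustment at 0.05. The fit was tested on simulated data. Gad2 and the ratios of paralogs were compared with two-sided exact permutation tests in SciPy 1.17.1, with Python 3.11.15, numpy 2.4.6, pandas 2.3.3 and matplotlib 3.10.9. Groups and replicate numbers were those of the sample labels. Gene models were those of GENCODE M21 and promoters those of RefSeq.

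The members and gene lists were chosen with earlier results of these data known. All members were named, with the genes of the autoantigen and GABA lists, the called genes of the other lists and the 3 genes most like each member. Of the GABA list, 3 of 18 genes are not reported here. Alternatives were a pseudocount of 0.1, a filter of 5 FPKM or none, only the 2 cell types compared, size factors, quantile normalization, hormone genes taken out with rescaling, the ribosomal protein set as a covariate, the replicate block and leaving out each sample.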

Additional observations from a re-analysis of the deposited data

Results flagged for a closer look

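In delta replicate 2, Ptprn stood at 3.93 on the log2(FPKM + 1) scale, far below the other 5 delta cell samples. Its gap to the nearest of them was 0.745 of the group's whole range, above Dixon's 95% limit of 0.625 for 6 samples. This was 1 of 24 groups examined, where chance gives about 1.2. The sample was also the lowest delta cell sample for Ptprn2 and one of the 2 delta cell samples with high ribosomal protein levels, and the part of either in the value was not tested.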

How the results depend on the processing

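Gad1 kept both of its calls under every setting in which it was tested. Over 10 alternatives it differed by 4.03 to 5.78 between beta and alpha cells (limma adjusted p up to 0.0119) and by -6.45 to -4.18 between delta and beta cells, and over 15 fits that each left out 1 sample by 3.70 to 4.31 and by -4.47 to -3.85.

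The Tspan7 difference of beta from alpha cells did not pass without a filter on FPKM (-1.98, limma adjusted p = 0.0680) or with only the 2 cell types in the fit (-1.98, adjusted p = 0.121), which left 1 member called in each case. Leaving out samples gave -2.52 to -1.74, and 1 to 2 members called. The delta against beta difference of Tspan7 passed with quantile normalization (1.14), the ribosomal protein set as a covariate (1.07) and the hormone genes taken out (1.28), which left 2, 3 and 2 members called, and leaving out samples gave 0.93 to 1.71 and 1 to 2 members called. For Ptprn it was 1.66 and passed with that covariate, and leaving out samples gave 1.32 to 1.95. With size factors the delta against beta difference of Ptprn2 was -0.16 and that of Ica1 -0.17, and leaving out samples gave -0.0888 to 0.49 for Ica1. The Gad2 difference of delta from alpha cells missed the threshold with size factors (0.49, adjusted exact permutation p = 0.0520) and in limma without a filter (0.53, adjusted p = 0.166). Leaving out samples gave 0.44 to 0.63 for that difference, 0.38 to 0.57 for delta against beta cells, 3.64 to 4.24 for the Gad1 to Gad2 ratio in beta against alpha cells and -1.32 to -0.68 for the Ptprn to Ptprn2 ratio there. The cause of these changes was not tested.

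The labels and methods do not say that a replicate number marks a shared sort, so whether the numbers pair the samples is unknown. Deviations of same-numbered samples from their group means correlated at -0.152 to 0.281 (mean 0.0762, 13 pairs), against a mean of -0.0161 in the other 61. With the replicate block in the fit of all samples, delta against beta cells gave -0.23 for Ptprn2 and 1.41 for Tspan7 (limma adjusted p = 0.0365), and 2 members called. With the block on pairs only, delta against beta cells gave -0.13 for Ptprn2 and 1.46 for Tspan7 (limma adjusted p = 0.155, 1 member called) and, in beta against alpha cells, -2.01 for Tspan7 (limma adjusted p = 0.163) with 1 member called. Over all genes, the block changed the calls in beta against alpha cells from 1104 to 1227. It changed them from 981 to 831 in delta against alpha cells and from 2114 to 2001 in delta against beta cells. In beta against alpha cells there were 743 calls without the filter on FPKM, 407 with only the 2 cell types and 2078 with size factors. There were 201 with the block on pairs only, which also leaves out unpaired samples and tests 13122 genes. Other calls that a setting ended were of listed genes and not of members, chiefly Csad in beta against alpha cells, Sox13 in delta against beta cells, Chgb in delta against alpha cells and Capn1 in both comparisons of delta cells. Depth was resolved in 6 of 15 samples, and among these it was lower in the samples with high ribosomal protein levels. Its limit on the members with low values, Gad2 and, outside beta cells, Gad1, was not tested and is not known.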

Other observations

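Of 15 genes of dense-core granules and exocytosis, the compartment of the IA-2 and phogrin proteins, 2 were higher and 0 lower in beta than alpha cells by limma, beside 2.84% and 4.82% of all tested genes. Delta cells had 3 higher and 0 lower than alpha cells (5.33% and 1.48% of all tested genes), and 0 higher and 1 lower than beta cells (11.7% and 2.99%). Pcsk1, the prohormone convertase that starts the cutting of proinsulin, stood at 138.5 ± 92.9 FPKM in beta cells (SD, n = 4), 16.3 ± 3.70 in delta cells (SD, n = 6) and 1.04 ± 0.780 in alpha cells (SD, n = 5). All 3 pairs of cell types passed, with differences of 5.92 for beta from alpha cells (limma adjusted p = 3.46e-07), 3.13 for delta from alpha cells (limma adjusted p = 5.29e-05) and -2.79 for delta from beta cells (limma adjusted p = 0.000233). Scg2, the granin secretogranin II, was higher than in alpha cells by 3.09 in beta cells (limma adjusted p = 0.00590) and by 2.16 in delta cells (limma adjusted p = 0.0267). The latter call was lost without any of alpha replicates 1 to 3 or delta replicates 3 to 6 (limma adjusted p up to 0.0776) and without a filter on FPKM (limma adjusted p = 0.0709), and both were lost with the replicate block on pairs only (limma adjusted p = 0.0653 in beta and 0.0628 in delta cells). Chgb, the granin chromogranin B, was higher in delta than alpha cells by 3.58 (limma adjusted p = 0.0450), a call that was lost without any of alpha replicates 1 to 3, delta replicates 3 to 6 or beta replicates 1, 2 and 4 (limma adjusted p up to 0.136). Pcsk2, Pam, Snap25, Stx1a, Rab3a, Rab27a and Syt7 passed in no comparison, and neither did Chga, Cpe, Scg3, Scg5 and Vamp2.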
